A study of Mus musculus with 16 samples.

Results

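Creatine and adenylate energy transfer is represented here by 8 genes: Ckm, Ckmt2 and Ckb (creatine kinases), Slc6a8 (creatine import), Gamt and Gatm (creatine synthesis), Ak1 (adenylate kinase) and Ampd3 (AMP deaminase). They were chosen by name: every non-control probe whose gene name on the array was one of the 8 was taken. This gave 10 of the 23069 probes and 8 of the 15670 genes that were well above background on at least 4 arrays, so no member was lost to the filter. One-colour Agilent arrays, 16 in all and 1 per mouse, measured RNA from a mid-ventricular piece of the left ventricle. NOS3-TG mice carry nitric oxide synthase 3 (Nos3) under the cardiomyocyte promoter of alpha-myosin heavy chain (alpha-MHC-NOS3), and WT mice are their littermates. All groups share a C57BL/6 N background with 7 generations of backcrossing, and animals were matched for age and weight, with no age in weeks given in the labels. The groups were NOS3-TG mice 10 weeks after transverse aortic constriction (TAC, a narrowing of the aorta that loads the left ventricle), intact NOS3-TG mice (baseline), WT mice 10 weeks after TAC and intact WT mice. Each group held 4 arrays, from 2 males and 2 females. The baseline mice were intact, so load and surgery cannot be told apart.

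Creatine kinase moves the high-energy phosphate between ATP and creatine. In the heart the mitochondrial form (Ckmt2) makes phosphocreatine where ATP is produced, and the cytosolic muscle and brain forms (Ckm, Ckb) regenerate ATP where it is used. Creatine is built by Gatm, which makes guanidinoacetate, and Gamt, which methylates it, mainly outside the heart, and cardiomyocytes take it up through the transporter Slc6a8. Adenylate kinase (Ak1) turns a pair of ADP molecules into ATP and AMP, and AMP deaminase (Ampd3) converts AMP to IMP.

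Promoter sequences are shown for Ckm and Gamt, which were each called lower in WT hearts after TAC. Ckb, the cytosolic counterpart of Ckm, did not fall and is shown beside them. Ak1, also called lower, has more than 1 listed promoter and is not shown. RefSeq (GRCm38.p6) lists promoters for 7 of the 8 genes, 12 in all, with 4 for Ak1 and 3 for Ampd3. Each line gives the 250 bases before the listed start, 5′ to 3′ on the gene's strand, with matches in capitals to any of 4 motifs searched on both strands: the TATA box as TATANA, the E box as CANNTG, the CCAAT box as CCAAT and the GC box as GGGCGG. Neighbouring matches may overlap.
Ckm promoter: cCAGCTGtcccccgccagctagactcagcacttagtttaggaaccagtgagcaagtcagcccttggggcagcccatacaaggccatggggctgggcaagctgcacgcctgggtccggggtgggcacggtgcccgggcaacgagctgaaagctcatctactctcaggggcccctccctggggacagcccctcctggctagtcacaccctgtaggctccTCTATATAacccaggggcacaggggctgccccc
Gamt promoter: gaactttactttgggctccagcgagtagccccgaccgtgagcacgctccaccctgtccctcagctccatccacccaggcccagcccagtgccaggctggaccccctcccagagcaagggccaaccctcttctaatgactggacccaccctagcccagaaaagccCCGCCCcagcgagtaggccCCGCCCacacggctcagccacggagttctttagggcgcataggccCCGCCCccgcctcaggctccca
Ckb promoter: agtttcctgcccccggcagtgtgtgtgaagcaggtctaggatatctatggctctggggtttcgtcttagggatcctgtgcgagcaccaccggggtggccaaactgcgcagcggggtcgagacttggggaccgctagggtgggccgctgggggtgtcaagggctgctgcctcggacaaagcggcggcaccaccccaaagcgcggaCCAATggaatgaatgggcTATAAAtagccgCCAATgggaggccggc
The Ckm window (chr7:19410844-19411093, plus strand) holds overlapping TATA-box matches between bases 33 and 26 before the start and 1 E box. The Gamt window (chr10:80261013-80261262, minus strand) has no TATA box, E box or CCAAT box match and 3 GC boxes. The Ckb window (chr12:111672339-111672588, minus strand) has 1 TATA box, 28 to 23 bases before the start, and 2 CCAAT boxes. Among 32841 RefSeq promoter windows of the same length, 22.6% hold the TATA-box letters, 66.2% the E box, 33.9% the CCAAT box and 32.7% the GC box, against 2, 9, 5 and 2 of the 12 windows of these genes.

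In the array files the Ckm probe lies on chromosome 7 between 17099247 and 17101854, the Gamt probe on chromosome 10 between 80040533 and 80040593 and the Ak1 probe on chromosome 2 between 32642118 and 32642178. The Ckmt2 probe is placed on chromosome 13, 88926674 to 88928822, the Slc6a8 probe on chromosome X, 69068908 to 69068967, and the Gatm probe on chromosome 2, 122335931 to 122335990. Ckb has 2 probes on chromosome 12, at 109191453 to 109191513 and at 109192217 to 109192864. Ampd3 has 2 on chromosome 7, at 106726737 to 106726796 and at 106711043 to 106715936. The sources used here do not give the build of these positions or whether they lie in exons or UTRs. No member probe was saturated on any array.

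The 75th percentile of the signal, used for scaling, ran from 1053 to 1491 over the arrays. A median of 52.5% of probes were well above background, and 3 NOS3-TG arrays stood apart: 44.8% (baseline replicate 2), 46.2% (TAC replicate 3) and 68.1% (TAC replicate 4). Nos3 read 183531 to 346473 on the NOS3-TG arrays and 2284 to 5143 on the WT arrays, without overlap. TAC arrays were on slides 2 and 3 and baseline arrays on slides 1 and 4, so TAC and slide cannot be told apart. Slide 3 was scanned on a second day. On every slide, male NOS3-TG, female NOS3-TG, male WT and female WT took positions 1 to 4, so position cannot be told apart from genotype and sex. Levels below are log2 signal relative to the array's 75th percentile, and can be compared between arrays for 1 probe but not between probes.

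**Figure D1:**
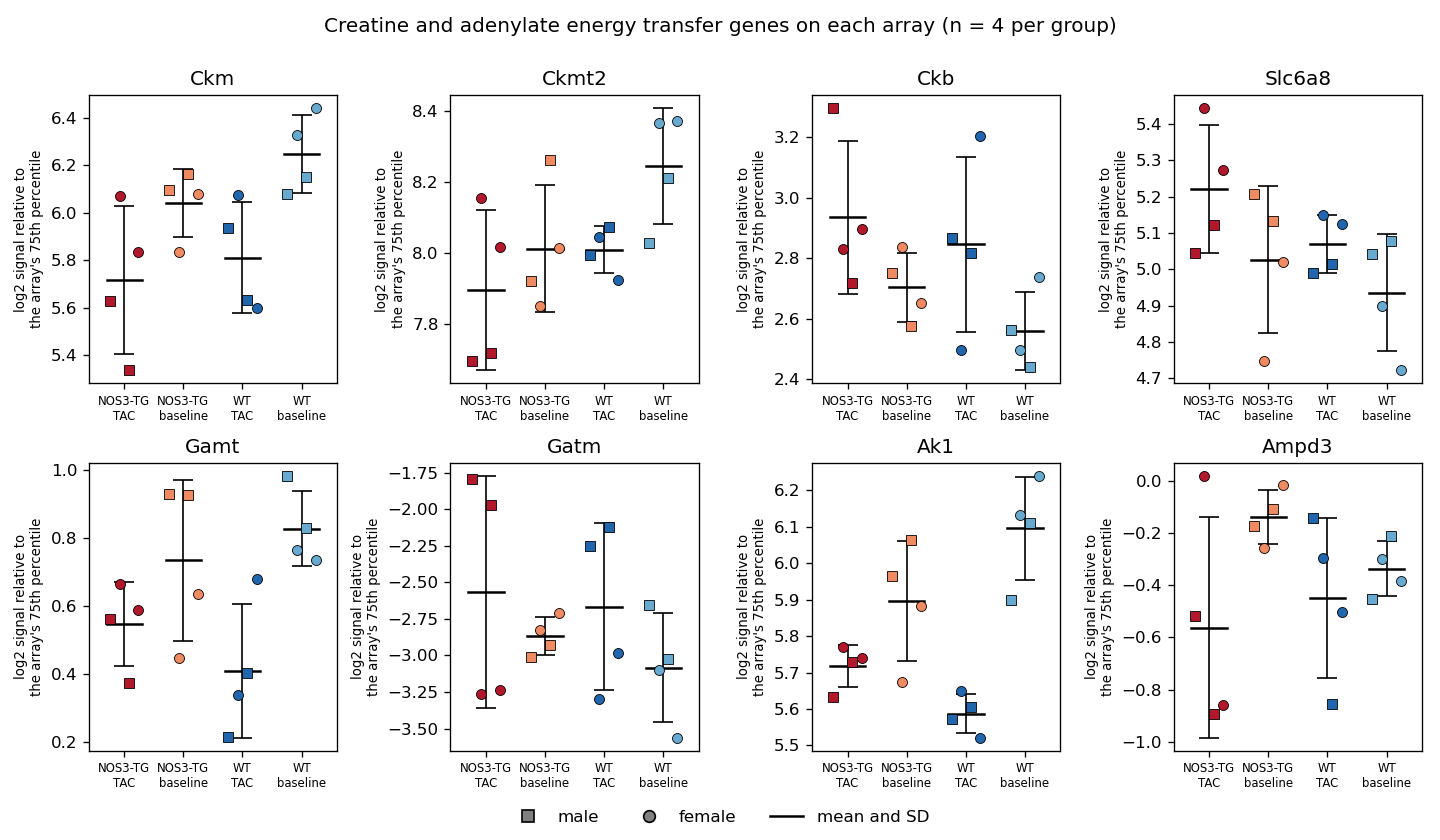
Log2 signal relative to the array's 75th percentile (vertical axes) for the 8 genes in the 4 groups, with squares for males, circles for females and bars for the mean and SD of 4 arrays. Ak1 in WT TAC hearts lies between 5.52 and 5.65, below all 4 WT baseline arrays, and Gatm after TAC splits by sex.

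In WT hearts the muscle creatine kinase Ckm, the creatine-synthesis enzyme Gamt and the adenylate kinase Ak1 fell after TAC. The other 5 genes did not pass the test, and none of the 8 rose. That is 3 of 8 genes called, against 28.4% of all genes tested in this comparison, and 3 of 8 lower, against 17.5% of all genes lower and 10.9% higher. The same 3 were the members whose TAC arrays all lay below the baseline arrays, as 17.3% of genes did. Counted by probe, 3 of the 10 were called, against 27.3% of all probes. Without WT baseline replicate 2, 1 of the 10 was called. The share of all probes called in that smaller fit was not counted, so the drop is not read as a result about these genes. The median difference of the 8 genes was -0.17 and that of all genes -0.059. In tissue RNA, fewer cells of a type and less RNA per cell cannot be told apart.

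Ckm, the cytosolic muscle creatine kinase, had levels of 5.94, 6.07, 5.63 and 5.60 in WT TAC hearts, against 6.08, 6.33, 6.15 and 6.44 in WT baseline hearts. The groups were barely apart, the highest TAC array being at 6.07 and the lowest baseline array at 6.08, and the 2 lowest TAC arrays were those of slide 3. Ckm fell by 0.44 (SE 0.15, adjusted p = 0.0402). The TAC arrays of slide 2 differed from baseline by -0.24 and those of slide 3 by -0.63. The adjusted p was 0.34 without slide 3, 0.178 with scan day as a block, 0.0977 with no filter on dim probes, 0.0894 after quantile normalization, 0.0603 with the WT groups alone and 0.0525 with normexp correction. The call held without WT TAC replicate 1 or 2, and was lost without WT TAC replicate 3 (0.097) or 4 (0.135) and without WT baseline replicate 1 (0.0543), 2 (0.0783), 3 (0.0759) or 4 (0.0972).

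The mitochondrial kinase Ckmt2 had 7.99, 8.04, 8.07 and 7.92 in WT TAC hearts and 8.03, 8.37, 8.21 and 8.37 in WT baseline hearts. The groups overlapped, and the difference of -0.24 (SE 0.12) did not pass (adjusted p = 0.152). After quantile normalization the log2 difference was 0.0076 (adjusted p = 0.947). The brain-type kinase Ckb, by contrast, had a positive difference of 0.29 (SE 0.15, adjusted p = 0.173), with 2.87, 2.50, 2.82 and 3.20 in WT TAC hearts, against 2.56, 2.50, 2.44 and 2.74 in WT baseline hearts. Without WT TAC replicate 2, the lowest TAC array, the difference was 0.42 with an adjusted p of 0.0395. That was the only call among 20 alternatives. Without WT TAC replicate 4, the highest TAC array, the adjusted p was 0.482. The second Ckb probe differed by 2.19 (SE 1.23, adjusted p = 0.205 over all probes) on all arrays and by 0.30 (SE 0.17, adjusted p = 0.246) without WT baseline replicate 2, where it was not well above background.

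The creatine transporter Slc6a8 (4.99, 5.15, 5.01 and 5.13 in WT TAC hearts, 5.04, 4.90, 5.08 and 4.72 in WT baseline hearts) differed by 0.13 (SE 0.12, adjusted p = 0.436), with overlapping groups.

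Gamt, which methylates guanidinoacetate to creatine, had 0.21, 0.34, 0.40 and 0.68 in WT TAC hearts and 0.98, 0.77, 0.83 and 0.73 in WT baseline hearts. The groups did not overlap, with the highest TAC array at 0.68 and the lowest baseline array at 0.73. Gamt fell by 0.42 (SE 0.13, adjusted p = 0.0261). The call was lost without WT baseline replicate 1 (adjusted p = 0.0704), WT baseline replicate 3 (0.0535), WT TAC replicate 1 (0.0787) or WT TAC replicate 3 (0.0579). It was also lost with scan day as a block (0.051), with no filter on dim probes (0.0712) and with the WT groups alone (0.0534). Gatm differed by 0.42 (SE 0.25, adjusted p = 0.237), and its arrays are given with the sexes.

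The adenylate kinase Ak1 had the lowest adjusted p of the 8 genes. Its level was 5.57, 5.65, 5.60 and 5.52 in WT TAC hearts, against 5.90, 6.13, 6.11 and 6.24 in WT baseline hearts. All 4 TAC arrays lay below all 4 baseline arrays, and the arrays of the TAC group spread by an SD of 0.054. Ak1 fell by 0.51 on the log2 scale (SE 0.093, limma adjusted p = 0.00197). With any 1 of the 8 arrays left out the adjusted p was at most 0.00781. Without the 4 arrays of slide 3 the difference was -0.49 and the adjusted p 0.0565. A separate probe for a locus named on the array as similar to Ak1, LOC668628, was not well above background on any of the 16 arrays, and its share in the Ak1 signal was not tested.

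The AMP deaminase Ampd3 had -0.14, -0.29, -0.85 and -0.50 in WT TAC hearts and -0.45, -0.30, -0.21 and -0.38 in WT baseline hearts, a difference of -0.11 (SE 0.19, adjusted p = 0.695). Its groups overlapped. Its second probe gave -0.37 (SE 0.13, adjusted p = 0.055 over all probes).

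**Figure D2:**
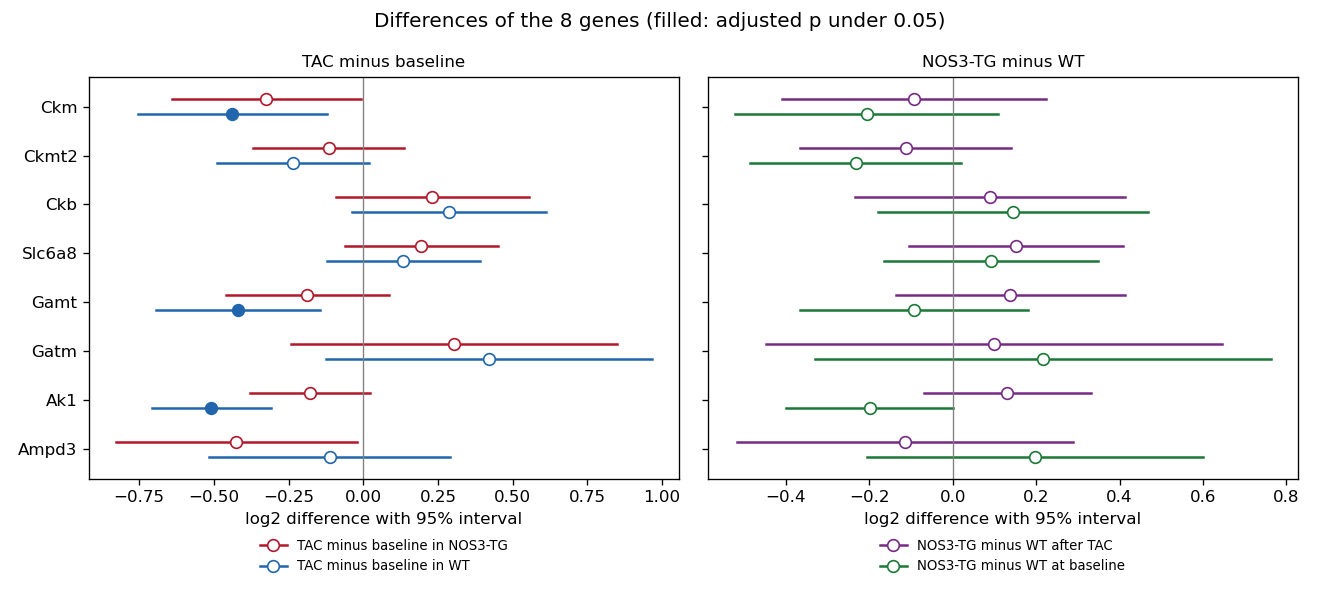
Log2 differences (horizontal axes) of the 8 genes with 95% intervals from limma, TAC minus baseline on the left and NOS3-TG minus WT on the right, with filled circles for an adjusted p under 0.05. The 3 filled circles are Ckm, Gamt and Ak1 in WT hearts, at -0.44, -0.42 and -0.51.

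In NOS3-TG hearts none of the 8 genes was called after TAC, against 11.8% of all genes tested, and in all 8 the groups overlapped, while in 16.6% of genes they did not. At an unadjusted p under 0.05, 2 of the 8 would pass (Ckm and Ampd3), against 27.8% of all genes. The signs were the same as in WT hearts for all 8 genes. The share of all genes with the same sign in both genotypes was not counted, and the genotypes shared their slides. Some signs in WT hearts were not stable: Ckmt2 was at 0.0076 after quantile normalization and Ampd3 at 0.16 with scan day as a block. The median difference of the 8 was -0.15, and that of all genes -0.0010.

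Ckm had 5.63, 6.07, 5.34 and 5.84 in NOS3-TG TAC hearts, against 6.10, 5.83, 6.16 and 6.08 in NOS3-TG baseline hearts, and differed by -0.32 (SE 0.15, adjusted p = 0.168). Gamt had 0.56, 0.66, 0.37 and 0.59 in NOS3-TG TAC hearts and 0.93, 0.45, 0.93 and 0.64 in NOS3-TG baseline hearts, and differed by -0.19 (SE 0.13, adjusted p = 0.366). In both genes the ranges overlapped. The interaction was 0.11 (SE 0.21) for Ckm and 0.23 (SE 0.18) for Gamt, and neither passed.

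The other creatine kinases and the transporter also overlapped between the groups. Ckmt2 had 7.70, 8.16, 7.72 and 8.01 in NOS3-TG TAC hearts and 7.92, 7.85, 8.26 and 8.01 in NOS3-TG baseline hearts, a difference of -0.12 (SE 0.12, adjusted p = 0.558). Ckb had 3.30, 2.83, 2.72 and 2.90 in NOS3-TG TAC hearts and 2.75, 2.84, 2.58 and 2.65 in NOS3-TG baseline hearts, a difference of 0.23 (SE 0.15, adjusted p = 0.344). NOS3-TG TAC replicate 1 was its highest array, and slide 2 differed from baseline by 0.36 and slide 3 by 0.10. Slc6a8 had 5.04, 5.44, 5.12 and 5.27 in NOS3-TG TAC hearts, against 5.21, 4.75, 5.13 and 5.02 in NOS3-TG baseline hearts, a difference of 0.19 (SE 0.12, adjusted p = 0.313).

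Ak1 had 5.63, 5.77, 5.73 and 5.74 in NOS3-TG TAC hearts and 5.96, 5.67, 6.07 and 5.88 in NOS3-TG baseline hearts. Baseline replicate 2 lay among the TAC arrays. Its difference was -0.18 (SE 0.093, adjusted p = 0.23), with a 95% interval from -0.38 to 0.021. The test of the difference between the genotypes' TAC effects gave 0.33 (SE 0.13), an unadjusted p of 0.0253 and an adjusted p of 0.664. Of the 15670 genes 0, or 0%, were called in that interaction by limma, and 7.44% had an unadjusted p under 0.05. A smaller TAC effect on Ak1 in NOS3-TG than in WT hearts was therefore not established.

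Ampd3 had the largest difference of the 8 in NOS3-TG hearts. It had -0.52, 0.020, -0.89 and -0.86 in NOS3-TG TAC hearts, against -0.17, -0.26, -0.11 and -0.015 in NOS3-TG baseline hearts. The 2 lowest TAC arrays were those of slide 3, as in WT hearts. The difference was -0.42 (SE 0.19, adjusted p = 0.157). It was -0.62 without NOS3-TG TAC replicate 2 (adjusted p = 0.0267) and -0.11 without slide 3. The interaction with genotype was -0.31 (SE 0.26, adjusted p = 0.783).

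The dimmer Ampd3 probe was well above background on 14 of the 16 arrays. It had -3.64, -2.72, -3.41 and -3.27 in NOS3-TG TAC hearts and -3.10, -2.97, -2.98 and -3.09 in NOS3-TG baseline hearts, a difference of -0.22 (SE 0.13, adjusted p = 0.317 over all probes). It had -3.06, -2.98, -3.26 and -3.19 in WT TAC hearts and -2.87, -2.75, -2.82 and -2.56 in WT baseline hearts. Those WT groups did not overlap at this probe and did at the brighter one. Both probes were lower after TAC in WT hearts, neither passed the test, and the difference between the probes was not tested.

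**Figure D3:**
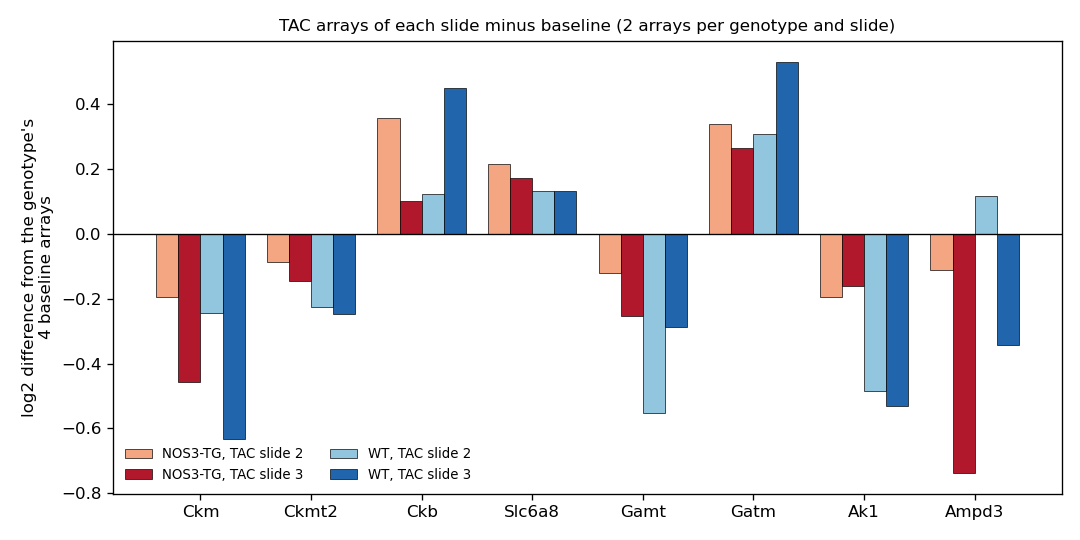
Log2 difference (vertical axis) between the 2 TAC arrays of a genotype on slide 2 or slide 3 and the 4 baseline arrays of that genotype. Ampd3 differed by -0.74 in NOS3-TG and -0.34 in WT on slide 3, against -0.11 and 0.12 on slide 2, while Ak1 in WT differed by -0.49 on slide 2 and -0.53 on slide 3.

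Over both genotypes the same 3 genes fell after TAC, against 37.2% of all genes called and 20.9% called lower. Ak1 fell by 0.34 (SE 0.065, adjusted p = 0.00147), Ckm by 0.38 (SE 0.10, adjusted p = 0.0116) and Gamt by 0.30 (SE 0.090, adjusted p = 0.0176). Each of these calls held with any 1 of the 16 arrays left out. With scan day as a block Ckm (adjusted p = 0.155) and Gamt (0.0532) no longer passed, nor did Ckm without slide 3 (0.169). Only slide 3 was scanned on the second day and it held only TAC arrays, so these alternatives are not independent. Ckb had a difference of 0.26 (SE 0.11, adjusted p = 0.0717). Of 27 alternatives it passed in 1, without WT TAC replicate 2 (0.32, adjusted p = 0.0178), and without WT TAC replicate 4 the adjusted p was 0.142. Ampd3 differed by -0.27 (SE 0.13, adjusted p = 0.128) at its brighter probe, which passed without NOS3-TG TAC replicate 2 (-0.37, adjusted p = 0.0178). With scan day as a block the log2 difference of Ampd3 turned sign, to 0.0030 (adjusted p = 0.986). With the mean of its probes Ampd3 passed (-0.28, adjusted p = 0.0468). Slc6a8 differed by 0.16 (SE 0.084, adjusted p = 0.144) and passed after quantile normalization (0.22, adjusted p = 0.04). The dimmer Ampd3 probe fell by 0.30 (SE 0.095, adjusted p = 0.0269), which makes 4 of 10 probes called, against 36.0% of all probes.

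Between genotypes none of the 8 genes was called: not at baseline, where 0.415% of all genes were, not after TAC, where 0.281% were, and not over both conditions, where 2.07% were. At an unadjusted p under 0.05 none of the 8 passed either at baseline or after TAC, against 12.3% of all genes in each. At the brightest probe of each gene the groups of all 8 overlapped, while 9.96% of genes had no overlap at baseline and 5.55% had none after TAC. At baseline the differences of NOS3-TG from WT ran from -0.23 for Ckmt2 (SE 0.12, adjusted p = 0.44) to 0.22 for Gatm (SE 0.25, adjusted p = 0.754). Ak1 was at -0.20 (SE 0.093, adjusted p = 0.407) and lay lower in NOS3-TG on both baseline slides, at -0.20 on each. After TAC the differences ran from -0.11 for Ampd3 to 0.15 for Slc6a8, with adjusted p of at least 0.627 for all 8 genes. Over both conditions Ckmt2 was at -0.17 (95% interval -0.35 to 0.0066, adjusted p = 0.327), and it lay lower in NOS3-TG on all 4 slides, with differences of -0.31, -0.093, -0.13 and -0.15 on slides 1 to 4. Ckm was also lower in NOS3-TG on all 4 slides, at -0.24, -0.16, -0.029 and -0.18, and Slc6a8 was higher on all 4, at 0.0060, 0.18, 0.13 and 0.18. The share of all genes with the same sign on all 4 slides was not counted, so these signs are no evidence of a genotype difference. The intervals do not show that the genotypes are alike: for Gatm after TAC it ran from -0.45 to 0.65. The 2 Ampd3 probes pointed opposite ways at baseline, at 0.20 and -0.29. At the dimmer one the baseline groups did not overlap, with -3.10 to -2.97 in NOS3-TG and -2.87 to -2.56 in WT hearts. It did not pass the test (adjusted p = 0.42 over all probes).

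Gatm, the enzyme of the first step of creatine synthesis, varied most within groups. Its within-group SD was 0.53, and 11.9% of genes had a larger one, while that of Ak1 was 0.12, with 85.9% of genes larger and a median of 0.20 over all genes. Its dim signal, 89.1 to 431, was well above background on all 16 arrays. After TAC, males had -1.79 and -1.97 in NOS3-TG hearts and -2.25 and -2.12 in WT hearts, and females had -3.26 and -3.23 in NOS3-TG hearts and -3.30 and -2.99 in WT hearts. All 4 males lay above all 4 females, and the male mean was 1.16 higher. The share of all genes whose sexes did not overlap was not counted. At baseline males had -3.01 and -2.93 in NOS3-TG hearts and -2.65 and -3.02 in WT hearts, and females had -2.83 and -2.71 in NOS3-TG hearts and -3.10 and -3.56 in WT hearts. The male mean was then 0.15 higher, and the sexes overlapped. The male-minus-female difference over all groups was 0.65 (SE 0.18, unadjusted p = 0.00288, adjusted p = 0.0929), with 1.32% of all genes called, none of the 8 among them. The interaction of sex and TAC was 1.02 (SE 0.18, unadjusted p = 0.000189, adjusted p = 0.13). In that test 0% of genes were called by limma, and 11.3% had an unadjusted p under 0.05. Gatm passed it without WT TAC replicate 4 or WT baseline replicate 4. Each of these fits leaves 1 array in that group and sex, so no conclusion is drawn from them.

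Slc6a8 and Gamt followed Gatm in that interaction with the opposite sign. The creatine transporter Slc6a8 had a male mean 0.21 below the female mean after TAC (5.04 in males, 5.25 in females) and 0.27 above it at baseline (5.12 in males, 4.85 in females). The sexes did not overlap in either condition. As for Gatm, the share of all genes whose sexes separate in this way was not counted, nor was it for Gamt below. Its interaction was -0.47 (SE 0.11, unadjusted p = 0.00184, adjusted p = 0.213). Gamt averaged 0.39 in males and 0.57 in females after TAC, and 0.92 in males and 0.65 in females at baseline, with all males above all females at baseline. Its interaction was -0.45 (SE 0.13, adjusted p = 0.297). Neither passed over all genes, so 3 of the 8 had an unadjusted p under 0.05 in that interaction, and the other 5 had unadjusted p above 0.05.

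**Figure D4:**
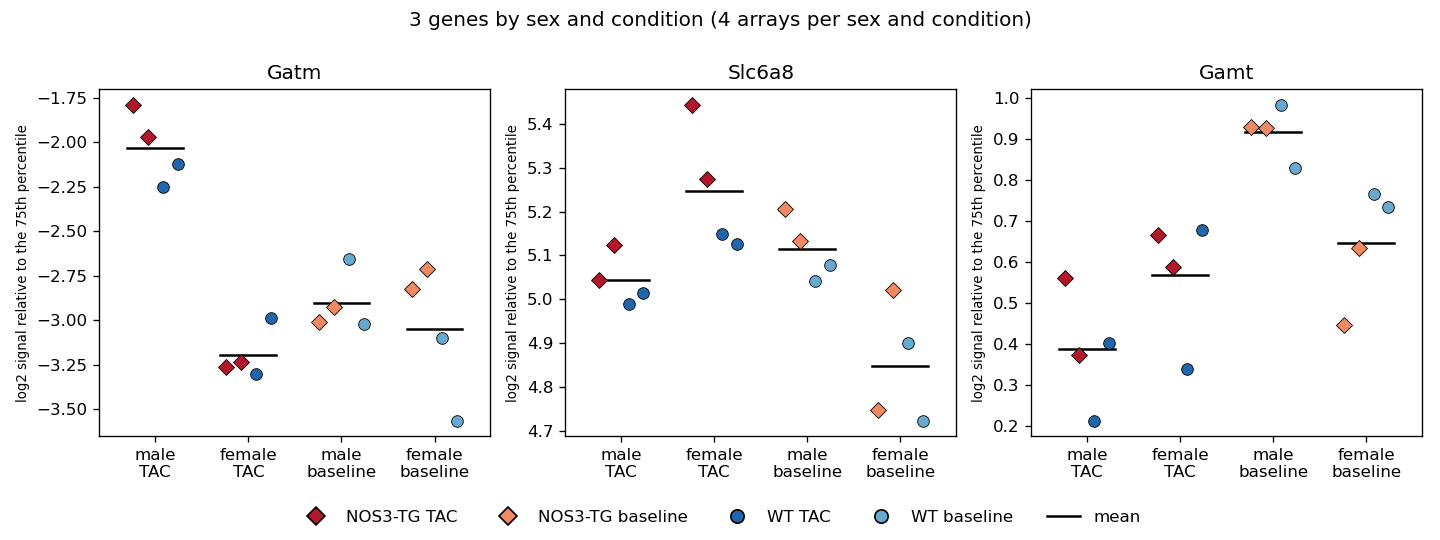
Log2 signal relative to the array's 75th percentile (vertical axes) for Gatm, Slc6a8 and Gamt in males and females after TAC and at baseline, with diamonds for NOS3-TG, circles for WT and lines for means of 4 arrays. Gatm after TAC averaged -2.03 in males and -3.20 in females.

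Ratios of 2 genes on the same array need no scaling between arrays, and 4 pairs were compared in 4 comparisons. None of the 16 passed a two-sided exact permutation test after adjustment, where 4 against 4 arrays cannot give a p below 0.0286. With that limit a single ratio could not pass after adjustment over 16 tests, so the outcome does not show that the ratios were unchanged. The ratio of Ckb to Ckm was higher after TAC by 0.73 in WT hearts (-2.96 ± 0.50 in WT TAC, -3.69 ± 0.13 in WT baseline, SD, n = 4 each, exact p = 0.0571, adjusted p = 0.229). In NOS3-TG hearts it was higher by 0.56 (exact p = 0.0571, adjusted p = 0.229). The ratio of Ampd3 to Ak1 was 0.40 higher in NOS3-TG than in WT hearts at baseline, with no overlap (exact p = 0.0286, adjusted p = 0.229). The share of gene pairs without overlap was not counted. This ratio holds for the brighter Ampd3 probe only. The dimmer one differed by -0.29 in that comparison and Ak1 by -0.20, and their ratio was not tested.

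The genes whose level over the 16 arrays lay closest to a called member, by the root mean square difference after centring each gene, were Sdhb (0.089) and Atp5g1 (0.089) for Ckm. They encode a subunit of respiratory complex II and a subunit of the mitochondrial ATP synthase. For Ak1 they were Mrps9 (0.058) and Mcat (0.062), and for Gamt Traf4 (0.11) and Tmem120b (0.12). The pair nearest Ckmt2, taken after its values were seen, was Cox5a (0.063) and Atp5g3 (0.069), of cytochrome oxidase and the ATP synthase. Nearest the other uncalled members, taken likewise, were Nans and a probe without a gene symbol for Ckb, and Smurf1 and Senp5 for Slc6a8. For Gatm they were Galnt12 and Ptpn7, and for Ampd3 Git2 and Nr1h2. All genes share the same 16 arrays, and no test was made.

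Other genes of the same chemistry were counted in 7 lists in WT hearts after TAC, where 17.5% of all genes were called lower and 10.9% higher. Of 9 measured genes of adenine nucleotide translocation and outer mitochondrial membrane pores 4 fell and none rose (median -0.26, against -0.059 for all genes). Slc25a42, a mitochondrial carrier of coenzyme A and adenine nucleotides, fell by 1.06 (SE 0.25, adjusted p = 0.00811), and the voltage-dependent anion channels Vdac3 and Vdac1 fell by 0.42 and 0.41. Of 12 other nucleotide kinases 6 fell and 1 rose (median -0.17): Dguok, the deoxyguanosine kinase of mitochondria, fell by 0.73 (adjusted p = 0.000309), Cmpk2 rose by 0.57 and Nme3 fell by 0.52. Of 4 other adenylate kinases, Ak3 and Ak6 fell, by 0.28 and 0.23, and none rose (median -0.25). Of 11 other creatine genes Mat2b and Oat fell, by 0.38 and 0.29, and none rose (median -0.18).

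Enzymes at the AMP branch moved both ways. Of 8 measured AMP and IMP interconverting enzymes besides Ampd3, 3 rose and 2 fell (median 0.16), among them the 5′-nucleotidases Nt5e (0.64) and Nt5c2 (0.63) and the adenylosuccinate synthase Adss (0.45), which rose. Of 14 genes of adenosine handling and adenine salvage 4 fell and 1 rose (median -0.11): the adenosine receptor Adora1 fell by 0.58, adenosine kinase Adk by 0.48, and adenosine deaminase Ada rose by 0.57. Of 11 AMP-activated kinase subunits and upstream kinases 2 rose and 2 fell (median 0.10). The regulatory subunit Prkag3 rose by 0.70 and the upstream kinase Camkk2 by 0.68 (adjusted p = 0.00054), and the subunit Prkab1 fell by 0.61. In NOS3-TG hearts after TAC these 7 lists held 4 genes that rose and 4 that fell, with 11.8% of all genes called in either direction, and the difference from WT was not tested list by list. Of all these lists, the genotype comparisons called only Slc25a25, an ATP-magnesium carrier, at -0.41 over both conditions (adjusted p = 0.0404).

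Markers of cardiomyocytes were well above background on all 16 arrays for all 17 genes listed. Of the 17 cardiomyocyte markers, 2 fell and 1 rose in WT hearts after TAC, with a median of -0.25. Their summed level ran from 3346 to 4353 in WT TAC hearts and from 3922 to 4723 in WT baseline hearts. It ran from 3329 to 4094 in NOS3-TG TAC hearts and from 3531 to 4656 in NOS3-TG baseline hearts. Over all genes 10.9% rose and 17.5% fell in that comparison. Of 14 fibroblast markers 8 rose and none fell in WT hearts after TAC, with summed levels of 447 to 576 in WT TAC hearts and 422 to 503 in WT baseline hearts. Of 12 macrophage markers 7 rose and none fell, with sums of 89.5 to 116 in WT TAC hearts and 67 to 82.6 in WT baseline hearts, and of 12 endothelial markers 4 rose and none fell. Of 8 skeletal muscle markers measured, 2 rose and 3 fell, and of 6 adipocyte markers 3 fell. In NOS3-TG hearts after TAC none of the cardiomyocyte markers was called, and 3 fibroblast, 1 endothelial and 2 macrophage markers rose, with 11.8% of all genes called. Summed macrophage levels were 108 to 125 in NOS3-TG TAC hearts and 94.4 to 114 in NOS3-TG baseline hearts, and the NOS3-TG baseline sums all lay above the WT baseline sums. Smooth muscle and pericyte markers summed to 222 to 256 in NOS3-TG TAC hearts and 150 to 175 in NOS3-TG baseline hearts, without overlap, and to 209 to 273 in WT TAC hearts and 175 to 211 in WT baseline hearts. Schwann cell and neuron markers summed to 16.7 to 28.6 in NOS3-TG TAC hearts and 7.77 to 13.0 in NOS3-TG baseline hearts, without overlap, and to 9.73 to 20.4 in WT TAC hearts and 7.59 to 12.1 in WT baseline hearts. Atrial markers summed to 360 to 413 in NOS3-TG TAC hearts and 75.2 to 315 in NOS3-TG baseline hearts, without overlap, and to 229.5 to 469 in WT TAC hearts and 77.4 to 421 in WT baseline hearts. The atrial list includes Nppa. All sums add signals on the linear scale, so the brightest genes weigh most, and the weight of single genes was not tested. The part of all these markers in the falls of Ckm, Gamt and Ak1 was not tested.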

How the data were processed

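The intensity of each spot is the background-subtracted processed signal, made by the authors with Agilent Feature Extraction, version 9.5.1.1 in the submitters' processing notes, and its columns were read per the file headers. A second table holds log2 values of 22057 probes that the authors processed in a way the sources used here do not state, and served as an alternative. Control spots and those with outlier flags were dropped, spots of a probe were averaged (Gamt has 10), and the array's 75th percentile was subtracted from log2 signal. Probes well above background on at least 4 of 16 arrays were kept, and the brightest probe stood for a gene. Limma 3.58.1 in R 4.3.3 was fitted to the 16 arrays together, with 1 term per group and 1 for sex, and with a mean per group and sex for the interaction of sex and TAC. Calls are at a two-sided Benjamini-Hochberg adjusted p under 0.05 over all genes. The fits were tested on simulated data. Figures used matplotlib 3.10.9 in Python 3.11.15. The labels call the animals biological repeats.

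The 8 genes, the lists and the tests were chosen with earlier results of these data known. Named are all 8 genes with every probe, up to 3 called genes by size from each other list in WT hearts after TAC, list genes called between genotypes, Nos3, and the 2 genes closest in level to each called member. Those closest to the uncalled members were added after the data were seen. Alternatives were quantile normalization, normexp correction (offset 50), the authors' values, dim probes kept or required on all 16 arrays, the mean of a gene's probes, a fit without sex, one on the compared groups alone, slide or scan day as a block, leaving out 3 arrays with extreme shares above background, and each array left out in turn. Leaving out slide 3 was added after the data were seen. As the second scan day held only slide 3, it is close to scan day as a block. The number of arrays limits the precision. Where a group lost arrays, the remaining ones were assumed to vary like the other groups.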

Additional observations from a re-analysis of the deposited data

Results flagged for a closer look

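The second Ckb probe read -6.61 on the log2 scale relative to the array's 75th percentile on WT baseline replicate 2, far below the other 3 WT baseline arrays, the nearest of which was at 0.81. Its processed signal there was 10.8, not well above background, against 2059 to 4684 on the other 15 arrays. The first Ckb probe read 2.50 on the same array, inside its group's range. It was the only one of 40 probe-and-group sets in which an array lay this far out, and chance gives about 1 in 20. Neither interaction passed for any of the 8 genes in its 16 tests.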

How the results depend on the processing

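Of the 8 genes, Ak1 in WT hearts kept its direction under all 20 alternatives and its call under 19, the exception being the arrays of slide 3 left out (adjusted p = 0.0565); Gamt kept its call under 13 and Ckm under 8, both with the same sign under all 20. Over the 1680 combinations of a gene's difference and an alternative, 74 turned sign, none of them for a difference that was called, 23 lost a call and 8 gained one. The cause was not tested in any of these. The counts of genes called were 44 for NOS3-TG minus WT after TAC, 65 for NOS3-TG minus WT at baseline, 325 for NOS3-TG minus WT over both conditions, 1851 for TAC minus baseline in NOS3-TG, 4452 for TAC minus baseline in WT, 5826 for TAC minus baseline over both genotypes, 0 for the interaction of sex and TAC and 207 for male minus female over all groups. After quantile normalization, the count of genes called was 78 for NOS3-TG minus WT after TAC. With normexp correction, the count of genes called was 2954 for TAC minus baseline in WT, 1029 for TAC minus baseline in NOS3-TG, 24 for NOS3-TG minus WT at baseline, 20 for NOS3-TG minus WT after TAC, 157 for NOS3-TG minus WT over both conditions, 42 for male minus female over all groups and 1 for the interaction of sex and TAC. With no filter, the count of genes called was 2881 for TAC minus baseline in WT, 754 for TAC minus baseline in NOS3-TG, 30 for NOS3-TG minus WT at baseline, 6 for NOS3-TG minus WT after TAC, 129 for NOS3-TG minus WT over both conditions and 32 for male minus female over all groups, and that of the 8 genes was 1 for TAC minus baseline in WT. With the filter on all 16 arrays, the count of genes called was 111 for NOS3-TG minus WT at baseline and 84 for NOS3-TG minus WT after TAC. With no sex term, the count of genes called was 19 for NOS3-TG minus WT after TAC. With the compared groups alone, the count of genes called was 1187 for TAC minus baseline in NOS3-TG and 4 for NOS3-TG minus WT after TAC, and that of the 8 genes was 1 for TAC minus baseline in WT. With slide as a block, the count of genes called was 109 for NOS3-TG minus WT at baseline, 74 for NOS3-TG minus WT after TAC and 1 for the interaction of sex and TAC. With scan day as a block, the count of genes called was 2695 for TAC minus baseline in WT, 756 for TAC minus baseline in NOS3-TG and 3237 for TAC minus baseline over both genotypes, and that of the 8 genes was 1 for TAC minus baseline in WT and 1 for TAC minus baseline over both genotypes. Without the 3 arrays with extreme shares above background, the count of genes called was 401 for TAC minus baseline in NOS3-TG, 24 for NOS3-TG minus WT at baseline, 3 for NOS3-TG minus WT after TAC, 77 for NOS3-TG minus WT over both conditions and 24 for male minus female over all groups. Without the 4 arrays of slide 3, the count of genes called was 1255 for TAC minus baseline in WT, 666 for TAC minus baseline in NOS3-TG, 3 for NOS3-TG minus WT after TAC, 3002 for TAC minus baseline over both genotypes and 104 for NOS3-TG minus WT over both conditions, and that of the 8 genes was 1 for TAC minus baseline in WT. Differences that turned sign, all with adjusted p above 0.05, took these values. After quantile normalization they were 0.0076 for Ckmt2 (TAC minus baseline in WT); -0.0047 for Ckm, -0.031 for Ckmt2 and -0.012 for Slc6a8 (interaction of genotype and TAC); 0.040 for Ak1 (NOS3-TG minus WT over both conditions); 0.00042 for Ckb and 0.018 for Ak1 (male minus female over all groups); 0.0035 for Ak1 (interaction of sex and TAC); 0.019 for the ratio Ckmt2 minus Ckm (NOS3-TG minus WT at baseline). With normexp correction they were -0.10 for Gatm (NOS3-TG minus WT after TAC); -0.015 for Gatm (NOS3-TG minus WT over both conditions); -0.0047 for Slc6a8 (male minus female over all groups). In the authors' values they were -0.081 for Ckmt2 and -0.014 for Slc6a8 (interaction of genotype and TAC); 0.0034 for Ak1 (NOS3-TG minus WT over both conditions); 0.0092 for Ak1 (male minus female over all groups); 0.062 for the ratio Ckmt2 minus Ckm (NOS3-TG minus WT at baseline). With the mean of all probes they were -0.044 for Ampd3 (NOS3-TG minus WT at baseline); -0.085 for Ampd3 (NOS3-TG minus WT over both conditions); 0.46 for Ckb (male minus female over all groups); -0.76 for Ckb (interaction of sex and TAC). With scan day as a block they were 0.16 for Ampd3 (TAC minus baseline in WT); 0.0030 for Ampd3 (TAC minus baseline over both genotypes). Without the 3 arrays with extreme shares above background they were 0.038 for Ckm and 0.20 for Ampd3 (NOS3-TG minus WT after TAC); 0.12 for Ckb, -0.0089 for Slc6a8 and 0.041 for Gatm (interaction of genotype and TAC); 0.037 for Ckb (male minus female over all groups). Without the 4 arrays of slide 3 they were 0.12 for Ampd3 (TAC minus baseline in WT); 0.24 for Ckb and 0.033 for Gatm (interaction of genotype and TAC); 0.0030 for Ampd3 (TAC minus baseline over both genotypes); 0.064 for the ratio Ckmt2 minus Ckm (NOS3-TG minus WT after TAC); 0.083 for the ratio Ampd3 minus Ak1 (TAC minus baseline in NOS3-TG). With 1 array left out, the ranges follow. For TAC minus baseline in NOS3-TG, genes called numbered 971 to 1780. For TAC minus baseline in NOS3-TG, the 8 genes called numbered 0 to 1. For NOS3-TG minus WT at baseline, genes called numbered 26 to 85. For the interaction of genotype and TAC, genes called numbered 0 to 1. For NOS3-TG minus WT over both conditions, genes called numbered 189 to 433. For male minus female over all groups, genes called numbered 67 to 550. For the interaction of sex and TAC, genes called numbered 0 to 129. For the interaction of sex and TAC, the 8 genes called numbered 0 to 1. For TAC minus baseline in WT, genes called numbered 2911 to 5025. For TAC minus baseline in WT, the 8 genes called numbered 1 to 4. For NOS3-TG minus WT after TAC, genes called numbered 2 to 61. The count of the 10 probes called for TAC minus baseline in WT was 1 without WT baseline replicate 2, against 3 with it. The share of all probes called without that array was not counted. Differences of NOS3-TG minus WT at baseline spanned -0.16 to 0.0028 for Gamt and -0.070 to 0.022 for the ratio Ckmt2 minus Ckm. Differences of the interaction of genotype and TAC spanned -0.19 to 0.071 for Ckb, -0.035 to 0.13 for Slc6a8 and -0.29 to 0.060 for Gatm. Differences of NOS3-TG minus WT over both conditions spanned -0.017 to 0.076 for Gamt, -0.069 to 0.0067 for Ak1 and -0.055 to 0.11 for Ampd3. Differences of male minus female over all groups spanned -0.082 to 0.049 for Ckb, -0.017 to 0.075 for Slc6a8, -0.0021 to 0.10 for Gamt, -0.044 to 0.032 for Ak1 and -0.16 to 0.0029 for Ampd3. Differences of the interaction of sex and TAC spanned -0.012 to 0.34 for Ckb and -0.42 to 0.022 for Ampd3. Differences of TAC minus baseline in WT spanned -0.24 to 0.018 for Ampd3. Differences of NOS3-TG minus WT after TAC spanned -0.20 to 0.017 for Ckm, -0.045 to 0.22 for Ckb, -0.063 to 0.23 for Gatm, -0.31 to 0.014 for Ampd3, -0.023 to 0.37 for the ratio Ckb minus Ckm, -0.096 to 0.062 for the ratio Ckmt2 minus Ckm and -0.23 to 0.29 for the ratio Gamt minus Gatm.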
